A study of Mus musculus with 2 samples.

Results

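The genes described are 10 members of the pathway by which adrenal cells take up cholesterol, store it as esters, free it again and release it: Scarb1, Soat1, Soat2, Lipe, Lipa, Npc1, Npc2, Abca1, Abcg1 and Apoe. They were chosen by name for their known roles, not by their values, and were found by gene symbol, 10 of the 55536 genes listed. All 10 are among the 21938 nuclear protein-coding genes. They carry 63 annotated transcripts.

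The tissue was adrenal gland of male mice of strain B6CASTF1/J at 2 months of age, untreated as far as the labels say. The design has 1 group of 2 libraries, called replicate 1 and replicate 2. Each library came from 300 ng of total RNA. The sample descriptions number the animals 03 and 04, whereas the library descriptions share a number and the donor field is the same for both, so that separate animals were used rests on the sample descriptions alone. With 1 group there was no contrast between conditions. The SDs below measure only the spread between these 2 libraries, and the ratio of replicate 1 over replicate 2 compares 1 library with 1 library.

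Adrenal cortical cells make steroid hormones from cholesterol and hold a reserve of it as esters in lipid droplets. In rodents much of that cholesterol is taken from high-density lipoprotein by the receptor that Scarb1 encodes, which draws in cholesteryl ester without taking up the particle. Esters are made by the acyltransferases Soat1 and Soat2 and split in the cytosol by the hormone-sensitive lipase Lipe. Lipoproteins taken up whole are handled in the lysosome by Lipa, Npc1 and Npc2, and excess cholesterol leaves through the transporters Abca1 and Abcg1, with Apoe as a carrier.

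Levels are in TPM, a relative abundance that divides counts by transcript length and by a library total and so allows different genes to be compared within a table. Of 2 kinds of deposited table, the one derived from alignments to the transcriptome is used unless stated, and the one derived directly from reads is called read-based. Expected counts summed to 36512736 for replicate 1 and to 34454892 for replicate 2. The gland's own markers were abundant: 8 steroidogenic cortex genes, led by Hsd3b1 and Cyp11a1, summed to 8409 and 9108 TPM in replicates 1 and 2, and 8 chromaffin genes of the medulla, led by Chgb and Chga, summed to 2137 and 1878 TPM. Fat markers were abundant as well. White adipocyte genes, led by Fabp4 and Cfd, summed to 4806 and 3726 TPM, and brown adipocyte genes, led by Ucp1 and Cox8b, to 1588 and 803 TPM. Macrophage genes, led by Lyz2 and C1qb, summed to 143 and 154 TPM, and endothelial genes, led by Plvap and Emcn, to 196 and 219 TPM. Among 8 genes fixed as hepatocyte markers, Cyp2e1 held 380 and 339 of 385 and 350 TPM, while Alb had 0.88 and 5.06 TPM. The enterocyte genes, led by Vil1 and Fabp2, summed to 0.37 and 0.68 TPM, with Sis at 0 in both libraries.

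The 10 genes ran from among the most abundant protein-coding genes to the edge of detection. Scarb1, the receptor, was the highest, with Soat1 and Apoe next and Lipe after them. Abca1 and the lysosomal genes formed a middle tier, Abcg1 was low, and Soat2 was barely detected. Together the genes held 1646 TPM in replicate 1 and 1680 TPM in replicate 2. In a tissue of mixed cells, fewer cells of a type and less RNA per cell cannot be told apart.

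**Figure D1:**
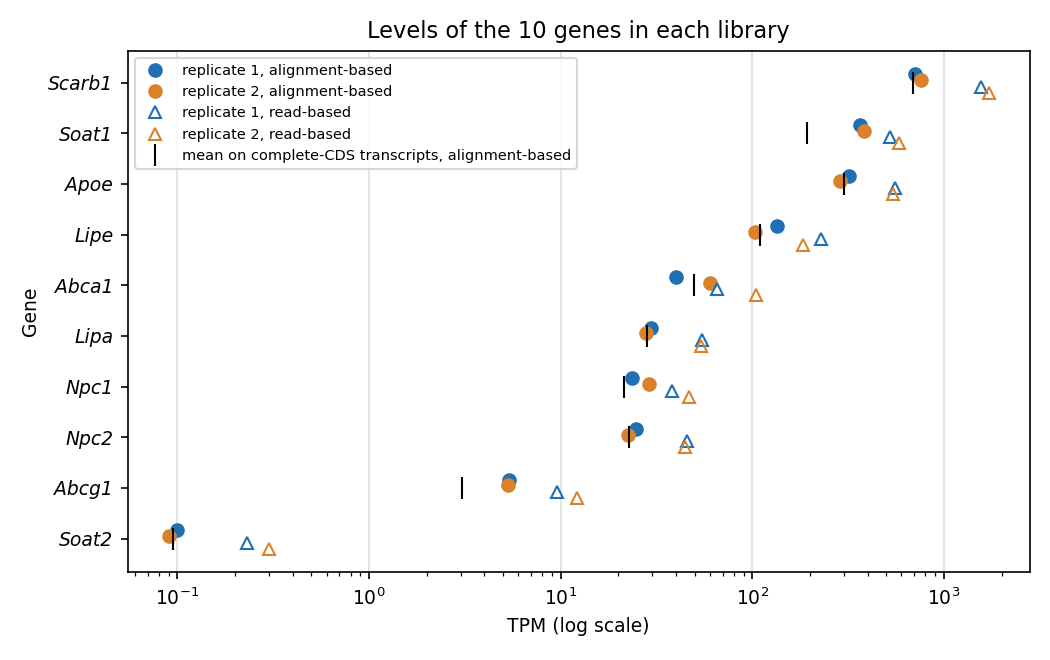
TPM of each of the 10 genes on a log axis. Filled circles are alignment-based and open triangles read-based values, blue for replicate 1 and orange for replicate 2, and black ticks are the mean over transcripts with a complete coding sequence. Scarb1 lies at the top, Soat2 near 0.1 TPM at the bottom, and the black tick falls well below the circles for Soat1 and Abcg1.

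Scarb1 (ENSMUSG00000037936.15, chr5:125277087-125341094, minus strand, GRCm38) encodes the receptor for selective uptake of cholesteryl ester. It had 705 and 762 TPM in replicates 1 and 2 (734 ± 40.8, SD, n = 2), from 64726 and 64602 counts. Among protein-coding genes it ranked 24 in replicate 1 and 21 in replicate 2. The read-based tables gave it 1558 and 1714 TPM, with ranks of 21 and 16. By either table it was the most abundant of the 10 genes in both libraries.

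Reads of Scarb1 fell mainly on 2 coding transcripts that differ in whether exon 12 is included. Scarb1-201 contains this 129-base exon, which carries its stop codon and so gives the receptor its usual C-terminal tail, the stretch that binds the adaptor Pdzk1. Scarb1-202 skips it and goes on coding in the exon after it, which Scarb1-201 leaves untranslated, giving the form known as SR-BII. The exon is shown because its inclusion decides which C-terminal tail is encoded. It lies at chr5:125281105-125281233 (minus strand, GRCm38, GENCODE M21), with the stop codon in capitals.
Scarb1-201 exon 12: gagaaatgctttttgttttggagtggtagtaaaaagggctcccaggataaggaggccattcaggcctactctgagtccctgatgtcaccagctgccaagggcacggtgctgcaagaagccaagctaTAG
The 30 bases across each splice junction, with the bases of the downstream exon in capitals, show what tells reads of the forms apart.
Scarb1-201 junction: caactgcgcagccagGAGAAATGCTTTTTG
Scarb1-202 junction: caactgcgcagccagGGTCCTGAAGACACT

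Scarb1-201 took 88.6% of the gene's TPM in replicate 1 and 85.3% in replicate 2 (86.9 ± 2.34%, n = 2). Scarb1-202 took 7.50% and 6.49%. The skipping form thus made up 7.81% and 7.08% of the sum of both forms, and 6.52% and 6.64% by the read-based tables. The tables put the minor form at a like share in both libraries. They differed for the short non-coding transcripts Scarb1-204 and Scarb1-206, which took 15.4% and 11.9% (Scarb1-204) and 9.81% and 11.2% (Scarb1-206) of read-based TPM in replicates 1 and 2, while their alignment-based shares were at most 1.04%. The adaptor Pdzk1, named after its values were seen, had 4 and 10 counts, or 0.10 and 0.13 TPM.

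Soat1 (ENSMUSG00000026600.12, chr1:156424525-156474331, minus strand) encodes the acyltransferase of most tissues, and Soat2 (ENSMUSG00000023045.13, chr15:102150526-102163469, plus strand) the one best known from liver and intestine. Soat1 had 364 and 382 TPM in replicates 1 and 2 (373 ± 12.9), with ranks of 78 and 65. By the read-based tables its ranks were lower, at 162 and 139. Soat2 had 0.10 and 0.09 TPM, resting on 8 counts in replicate 1 (95% Poisson interval 3.45 to 15.8) and 7 in replicate 2 (2.81 to 14.4). Nearly all TPM of the pair was therefore on Soat1. Soat1 exceeded Soat2 by a ratio of 3640 in replicate 1 and 4247 in replicate 2, and of 2253 and 1924 by the read-based tables, each with the counting error of so few Soat2 reads. All alignment-based Soat2 counts were on its full coding transcript, Soat2-201. The transcript Soat2-202, annotated for nonsense-mediated decay, took 10.8% of read-based TPM in replicate 1, which is less than 1 estimated count, and 0 in replicate 2.

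The Soat1 level depended on which transcripts were summed. Its complete coding sequence of 1620 bases is shared by Soat1-201, of 2925 bases, and Soat1-207, of 8371 bases. Together these took 51.8% and 52.0% of Soat1 TPM in replicates 1 and 2 but 91.3% and 91.5% of its counts, because short transcripts gain in TPM from the division by length. Soat1-201 alone held 39.8% and 38.9% of TPM and 48.5% and 46.2% of counts. Soat1-207 alone held 11.99% and 13.0% of TPM and 42.8% and 45.3% of counts. The rest of the TPM lay on fragments: Soat1-203, a retained-intron transcript of 509 bases, held 20.9% and 22.1%, and Soat1-206, an incomplete coding transcript of 366 bases, 16.4% and 15.2%.

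The read-based tables left the complete coding share of Soat1 TPM close to that, at 57.1% in replicate 1 and 57.2% in replicate 2, but moved the remainder to other fragments. Soat1-204, an incomplete coding transcript, took 23.8% and 21.03% by the read-based tables against 5.90% and 4.17% in the alignment-based ones, listed in the order of replicates 1 and 2. Soat1-202 took 10.1% and 12.9% of read-based TPM, and Soat1-205 at most 5.07% in any table. Counted on complete coding transcripts only, Soat1 stood at 188 and 199 TPM (194 ± 7.31), below Apoe at 319 and 285 TPM. The order of Soat1 and Apoe thus turned over with this choice, which was made after the data were seen.

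Lipe (ENSMUSG00000003123.15, chr7:25379527-25398710, minus strand) encodes the hormone-sensitive lipase, which splits cholesteryl esters and diacylglycerol in the cytosol and is also a main enzyme of fat cells. It had 134 and 103 TPM in replicates 1 and 2 (119 ± 21.5), with ranks of 340 and 445, and the read-based tables gave it 228 and 183 TPM. Of alignment-based TPM, Lipe-202 held 71.9% and 70.8%, Lipe-208 13.2% and 12.1%, Lipe-201 8.30% and 8.75%, and the incomplete Lipe-205 5.40% and 5.44%. The shares differed little between the libraries although the level differed.

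These Lipe transcripts start from different first exons that join the same exon. The 15 bases on either side of that boundary are printed with the upstream bases in capitals, at chr7:25388639-25395515, chr7:25388639-25390076 and chr7:25388639-25388668 in order (minus strand, GRCm38, GENCODE M21). In Lipe-208 the shared bases lie inside a longer first exon.
Lipe-201: AAGGCAAGATCAAAGcctcagcgttctcac
Lipe-202: AGAGGCCAGGGAGGGcctcagcgttctcac
Lipe-208: CCCATCTTCTCACAGcctcagcgttctcac
Lipe-202 and Lipe-208 have the same coding sequence of 2277 bases, and Lipe-201 one of 2406 bases. The shared coding sequence took 85.1% and 82.9% of TPM in replicates 1 and 2, and 80.3% and 79.5% by the read-based tables, although these tables divided it otherwise, with 48.3% and 49.4% on Lipe-202 and 32.1% and 30.04% on Lipe-208. The longest annotated coding sequence, 3216 bases in Lipe-204, held 0.028% of counts in replicate 1 and none in replicate 2.

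In the lysosome, Lipa (ENSMUSG00000024781.16, chr19:34492318-34527474, minus strand) encodes the acid lipase that splits cholesteryl esters of lipoproteins taken up whole. It had 29.7 and 28.0 TPM in replicates 1 and 2 (28.9 ± 1.22), and 54.9 and 53.9 TPM by the read-based tables. Set against the cytosolic lipase, Lipa stood to Lipe in a TPM ratio of 0.222 in replicate 1 and 0.271 in replicate 2, and of 0.241 and 0.294 by the read-based tables. The tables disagreed on the transcript. Lipa-201 took 81.4% and 92.4% of alignment-based TPM but 25.6% and 13.3% of read-based TPM, and Lipa-202 took 16.9% and 4.96% against 69.5% and 80.9%.

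These Lipa transcripts encode the same protein and differ near the start codon by 4 bases, in capitals below, which are the exon 2 bases before the atg in Lipa-201 (chr19:34524829-34527377) and are missing from Lipa-202 (chr19:34524829-34527381, both minus strand, GRCm38, GENCODE M21).
Lipa-201: ggaccactcccgGAAGatgcaactccaggg
Lipa-202: tggaggaccactcccgatgcaactccaggg
Only reads over this junction tell them apart. The authors' own bounds for Lipa-202, whose level of confidence is not stated, were 1.99 to 9.02 TPM in replicate 1 and 0.435 to 4.04 TPM in replicate 2, so the bounds of the libraries overlap. Summed, the pair held 98.3% and 97.4% of alignment-based TPM and 95.1% and 94.2% of read-based TPM.

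Npc1 and Npc2 hand free cholesterol on from the lysosome, Npc2 as the soluble carrier and Npc1 as the membrane protein that receives it. Npc1 (ENSMUSG00000024413.14, chr18:12189692-12236400, minus strand) had 23.5 and 28.9 TPM in replicates 1 and 2 (26.2 ± 3.82), and 38.3 and 46.7 TPM by the read-based tables. Npc2 (ENSMUSG00000021242.9, chr12:84754562-84773152, minus strand) had 24.7 and 22.5 TPM (23.6 ± 1.55), and 45.6 and 44.4 TPM by the read-based tables. Their ratio, Npc1 to Npc2, was 0.952 in replicate 1 and 1.28 in replicate 2, and 0.840 and 1.05 by the read-based tables, so which of the pair was higher depended on the library. By alignment-based TPM, Lipa was above Npc2 in both libraries. Npc1, their neighbour in the order of levels, could not be placed beyond the spread between libraries. By the read-based tables Lipa, at 54.9 and 53.9 TPM, was above both Npc1 and Npc2 in both libraries. It was also above both on complete coding transcripts alone, at 29.2 and 27.3 alignment-based TPM.

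Npc1-201, the only complete coding transcript of Npc1, took 84.0% and 79.3% of TPM in replicates 1 and 2, and 90.3% and 95.01% by the read-based tables. The retained-intron transcript Npc1-206 took 11.6% and 16.6%, but 0.696% and 0 by the read-based tables. Npc2-201 took 97.1% and 96.2%, and 86.8% and 86.6% by the read-based tables, which gave the retained-intron transcript Npc2-203 12.3% and 11.7%. The main coding transcript led in every table for both genes.

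Abca1 (ENSMUSG00000015243.4, chr4:53030787-53159895, minus strand) encodes the transporter that loads cholesterol onto lipid-poor apolipoprotein, and Abcg1 (ENSMUSG00000024030.7, chr17:31057675-31117988, plus strand) the one that passes it to mature high-density lipoprotein. Abca1 had 39.8 and 60.2 TPM in replicates 1 and 2 (50.02 ± 14.5), with ranks of 1364 and 871, and 65.7 and 105 TPM by the read-based tables. Abcg1 had 5.38 and 5.31 TPM (5.35 ± 0.0495), with ranks of 8137 and 8439, and 9.51 and 12.1 TPM by the read-based tables. Abca1 was the higher of the pair in both libraries. The ratio of Abca1 to Abcg1 was 7.40 in replicate 1 and 11.3 in replicate 2, and 6.91 and 8.63 by the read-based tables.

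Abca1 rested on a single transcript, Abca1-201, with 98.7% of TPM in replicate 1, all of it in replicate 2 and all of the read-based TPM. For Abcg1 the coding transcript Abcg1-201 took 57.2% and 53.8% of TPM but 90.5% and 89.4% of counts. The incomplete transcript Abcg1-204, of 912 bases, took 33.6% and 41.1% of TPM. By the read-based tables Abcg1-201 took 55.9% and 41.2%, Abcg1-204 19.3% and 27.9%, and the incomplete Abcg1-203 19.8% and 26.3%, from 15.98 estimated counts of Abcg1-203 in replicate 1. On complete coding transcripts alone the ratio of Abca1 to Abcg1 was 12.1 and 20.9.

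Of the 10 genes, 6 had a promoter in the RefSeq table used, with 9 windows of 250 bases before an annotated start. Scarb1, Soat2, Npc1 and Abcg1 had no entry. Windows were searched on both strands for the E-box CACGTG, a direct repeat of GGTNA with 5 bases between the copies, of the kind that nuclear receptors such as the liver X receptor bind, the sterol regulatory element letters TCACNCCAC, and the half-site CAAGGTCA of the steroidogenic factor Nr5a1. The motifs do not overlap in the windows where they were found. CACGTG was in the windows of Abca1 and Lipe, against 6.02% of the 32851 windows of all genes. The direct repeat was in that of Abca1, against 0.621%, and the sterol element and the half-site, present in 1.05% and 1.33% of all windows, were in none of the 9. The Abca1 window is printed because this gene differed most between the libraries. It covers chr4:53159896-53160145 (minus strand, GRCm38.p6, RefSeq), with the E-box, 147 to 142 bases before the start, and the repeat, 67 to 53 bases before it and read on the opposite strand, in capitals.
Abca1 promoter: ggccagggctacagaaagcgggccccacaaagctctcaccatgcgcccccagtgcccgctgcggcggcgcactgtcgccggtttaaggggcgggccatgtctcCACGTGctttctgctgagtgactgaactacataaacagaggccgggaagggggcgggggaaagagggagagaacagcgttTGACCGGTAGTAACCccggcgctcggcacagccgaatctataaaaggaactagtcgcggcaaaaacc
A match describes these letters only, and no binding was measured.

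Apoe (ENSMUSG00000002985.16, chr7:19696109-19699188, minus strand) encodes the apolipoprotein that steroid-making cells and macrophages secrete and that lipoprotein receptors recognise. It had 320 and 287 TPM in replicates 1 and 2 (303 ± 23.2), with ranks of 105 and 118. The read-based tables gave 553 and 545 TPM, within the range of Soat1 at 521 and 580 TPM, so the order of these neighbours was not settled by those tables.

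The tables named different leading Apoe transcripts. Apoe-209 took 83.3% and 80.9% of alignment-based TPM and 0 of read-based TPM in both libraries, whereas Apoe-205 took 0.663% and 0.456% against 94.8% and 90.4%. Apoe-206 took 13.4% and 12.4% against 4.88% and 4.22%, and Apoe-201 1.94% and 5.31% against 0. All carry the same coding sequence of 933 bases. They differ before the start codon, and Apoe-206 also runs on further at its 3′ end. The 30 bases ending in the atg are printed with the bases of the upstream exon in capitals, at chr7:19698228-19698257, chr7:19698228-19699014 and chr7:19698228-19698975 in order (minus strand, GRCm38, GENCODE M21).
Apoe-205: gcagactggccaatcacaattgcgaagatg
Apoe-206: GCTGactggccaatcacaattgcgaagatg
Apoe-209: CTTGactggccaatcacaattgcgaagatg
Summed over transcripts with this coding sequence, Apoe kept 99.2% and 99.0% of alignment-based TPM and 99.7% and 94.6% of read-based TPM. The incomplete Apoe-203 took 5.06% of read-based TPM in replicate 2 and practically none in replicate 1.

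By share of TPM, both kinds of table named the same leading transcript for 8 of the 10 genes. For the other 2, Lipa and Apoe, the leading transcripts had the same coding sequence. By counts the tables also differed for Soat1. Soat1-201 led the alignment-based counts with a mean of 47.3%, and Soat1-207, of the same coding sequence, the read-based counts with 52.5%. Of the 63 transcripts, 23 have a complete coding sequence, 10 an incomplete one, 28 none and 2 are marked for nonsense-mediated decay.

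**Figure D2:**
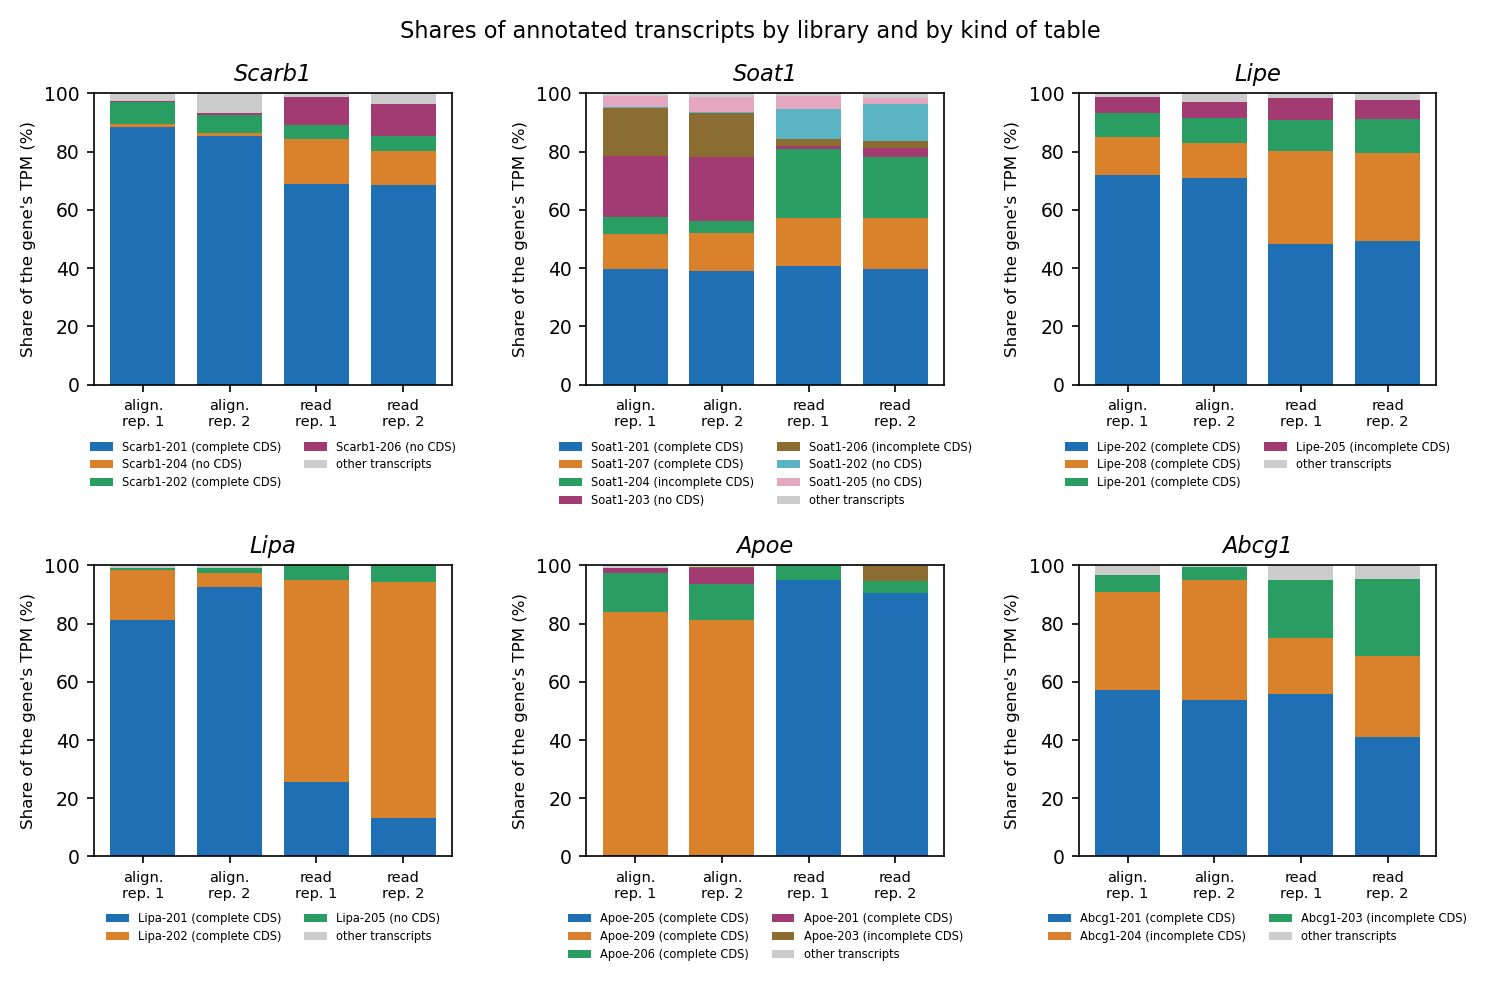
Share of each gene's TPM by annotated transcript, in percent, for 6 genes. Each panel has 4 bars, alignment-based replicates 1 and 2 and then read-based replicates 1 and 2, and transcripts under 5% in every bar are pooled in grey. Bars of the same table lie closer to each other for Scarb1, Soat1, Lipe and Apoe than for Lipa and Abcg1. Lipa and Apoe change their leading transcript between tables.

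Retained-intron transcripts took a larger share of counts in replicate 2 for most of these genes, a feature picked after its values were seen. For Scarb1 the share was 1.70% in replicate 1 and 5.10% in replicate 2, and 1.24% and 4.34% by the read-based tables. For Soat1 it was 4.97% and 5.57%, and for Npc1 7.34% and 9.98%, but 2.79% and 2.70% for Npc1 by the read-based tables. The share was lower in replicate 1 for 6 of the 7 genes that have such counts, Apoe being the exception, and for 5 of 7 by the read-based tables. The background ran the same way: the share was lower in replicate 1 for 66.8% of 6907 protein-coding genes, and for 67.6% of 6798 by the read-based tables, with medians of 3.34% and 4.05% in replicates 1 and 2. An overlapping gene of unclassified type on the same strand within Scarb1, Gm42633, had 391 and 701 counts. On the opposite strand lie 4 overlapping genes, among them an antisense gene across Lipe, 4732471J01Rik, with 63 and 67 counts, and Rmc1, which shares 967 bases with the end of Npc1 and had 1433 and 1519 counts. Whether the counting used strand is not given in the sources used here, so reads in these overlaps are uncertain. The part of these shares and overlaps in the members' levels was not tested.

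Between the libraries the 10 genes moved in different directions. Lipe was 1.40-fold higher in replicate 1 and Abca1 1.43-fold lower, while Scarb1 and Soat1 were almost level. Each ratio below sets replicate 1 over replicate 2 on the log2 scale, after adding 0.5 to the expected counts and scaling by edgeR's TMM factors, with a 95% interval that covers counting error only. A gene was called past 1.5-fold, a log2 ratio beyond 0.585, at a mean of 100 or more counts, a call of size and not a test. Of the 10 genes 9 had that depth, all but Soat2, and 0 of the 9 were called. Of all 12430 genes of that depth, 2.65% were called, 1.42% higher and 1.23% lower in replicate 1. The median ratio was 0.18 over the 9 genes, with 5 above 0 and 4 below, and 0.0071 over all 12430. By total counts, ERCC and the ratio of TPM the median over the 9 genes was 0.11, 0.075 and 0.019, and over all genes -0.069, -0.0996 and -0.084. No DESeq2 or edgeR test of conditions could be made with 1 group, so there is no count of genes by an unadjusted p.

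The largest ratios belonged to Abca1 and Lipe. Abca1 had 15526 counts in replicate 1 and 22152 in replicate 2, a log2 ratio of -0.52 (interval -0.55 to -0.49), larger in size than that of 96.0% of genes tested. It passed 1.5-fold under 3 other scalings, and not by DESeq2 size factors or read-based counts. It stood at -0.60 by total counts, where 1.81% of genes tested were called lower in replicate 1. By the ERCC spike-ins, synthetic RNAs added to each library, it stood at -0.63, with 2.06% called lower, and as a ratio of TPM at -0.60, with 2.74% called lower. Lipe had 13309 and 9426 counts, a ratio of 0.49 (0.45 to 0.53), larger than that of 95.3% of genes tested. It remained above 0 under all 6 alternatives, between 0.37 and 0.50.

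Under TMM scaling, smaller differences beyond counting error were seen for 5 genes. Apoe stood at 0.26 (0.22 to 0.29), Npc2 at 0.24 (0.16 to 0.31), Abcg1 at 0.19 (0.038 to 0.34) and Lipa at 0.18 (0.11 to 0.25), all higher in replicate 1. Npc1 stood at -0.16 (-0.22 to -0.10), lower in replicate 1. The sizes depended on the scaling, with the signs unchanged over the 6 alternatives. Intervals were made under TMM scaling only, so counting error under the other scalings was not assessed. Apoe ran down to 0.15 and Npc2 to 0.13 by ERCC, Lipa to 0.075 by ERCC, Abcg1 to 0.019 by the ratio of TPM, and Npc1 to -0.30 by the ratio of TPM. Of genes tested, between 65.6% and 81.6% had smaller ratios than these, so they lay within the common run of differences between the libraries. Scarb1 at -0.0046 (-0.020 to 0.011) and Soat1 at -0.015 (-0.037 to 0.0068) had intervals that include 0. Of genes tested, 2.24% and 8.05% had smaller ratios. Their sign followed the scaling: Scarb1 ran between -0.11 and 0.014 and Soat1 between -0.12 and 0.0021 over the alternatives. Soat2, at 0.17, had an interval of -1.47 to 1.88, and a difference was not detectable at its depth.

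**Figure D3:**
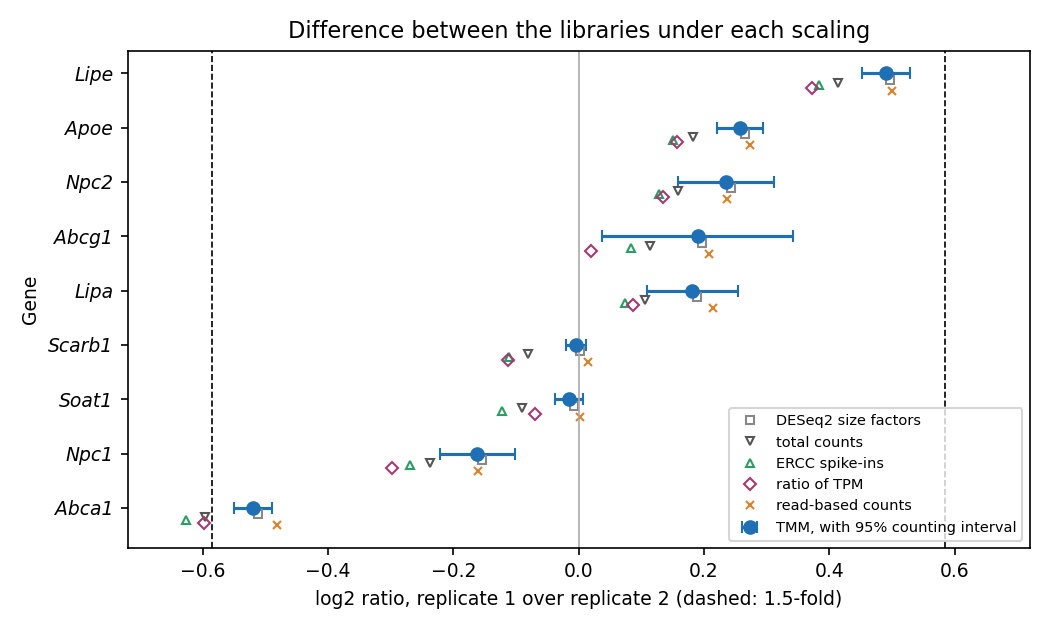
Log2 ratio of replicate 1 over replicate 2 for the 9 genes that averaged 100 or more counts. Blue circles with bars are TMM values with 95% counting intervals, small symbols other scalings, and dashed lines 1.5-fold either way. Lipe lies at 0.49 and Abca1 at -0.52, and the symbols of Abca1 beyond the dashed line are total counts, ERCC spike-ins and the ratio of TPM.

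Fat cell markers lay on the same side as Lipe. The median log2 ratio of the white adipocyte markers was 0.52, with 8 of 8 above 0, and brown adipocyte markers 1.02, with 7 of 8 above 0. None of these 16 markers was at 0 in either library. Their summed levels are given above, and their part in the Lipe ratio was not tested. Cortex markers had a median of -0.097, with 2 of 8 above 0, beside Scarb1 and Soat1 near 0. Beside Apoe, Abca1 and Abcg1, which macrophages also express, macrophage markers had a median of 0.029, with 5 of 9 above 0. Beside them, chromaffin markers had a median of 0.27, with 8 of 8 above 0, and endothelial markers -0.087, with 6 of 6 below 0. The macrophage median turned below 0 by total counts, ERCC and the ratio of TPM. The part of any of these lists in the members' ratios was likewise not tested.

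Other genes of the pathway were read from 4 lists, whose medians near 0 changed sign with the scaling in the uptake, transport and efflux lists. In the lipoprotein uptake list 8 of the 10 genes reported had the depth, and 2 were called higher and 0 lower in replicate 1, with a median of -0.0050 over the 8. The genes called higher were Lpl, the lipase that splits triglyceride in lipoproteins, with 410 and 278 TPM in replicates 1 and 2 (0.62), and the fatty acid and lipoprotein receptor Cd36, with 237 and 162 TPM (0.62). Both missed the call by total counts, ERCC and the ratio of TPM. Whether the reads of Lpl and Cd36 came from fat or from cortex was not tested. The endocytic receptor Lrp1 lay on the other side, as Abca1 did, with 40.0 and 61.0 TPM (-0.55), and it reached the call only by those same scalings, total counts, ERCC and the ratio of TPM.

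In the hydrolysis list 5 of 8 genes had the depth and 1 was called, higher in replicate 1. This was the carboxylesterase Ces1d, with 145 and 100.04 TPM (0.62), which missed the call under the same scalings. The list's median was 0.49 with 5 of 5 above 0, on the same side as Lipe. Pnpla2, the lipase that opens triglyceride breakdown, had 366 and 269 TPM (0.52), and Mgll, which splits monoglycerides, 55.4 and 44.5 TPM (0.40). Pnpla2, Ces1d and Mgll are also genes of fat cells, and whether their reads came from fat or from cortex was not tested.

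In the intracellular sterol transport list 16 of 17 genes had the depth and 0 were called, with a median of 0.013. Lamp1, a lysosomal membrane protein, had 151 and 146 TPM (0.14), the sterol carrier Scp2 128 and 103 TPM (0.42), and Gramd1b, which carries cholesterol from the plasma membrane to the endoplasmic reticulum, 97.3 and 111 TPM (-0.15). Gramd1b thus stood above Npc1 and Npc2 in both libraries. In the list of efflux and its regulators 9 of 13 genes had the depth and 1 was called, the apolipoprotein Apoc1, higher in replicate 1 with 59.0 and 39.2 TPM (0.70). The list's median was 0.092. Nr1h2, a liver X receptor that drives Abca1, had 30.6 and 35.5 TPM (-0.16), and its partner Rxra 17.2 and 17.6 TPM (0.091). The other liver X receptor, Nr1h3, named after its values were seen, lay on the opposite side, with 16.4 and 12.8 TPM (0.44). The part of either receptor in the Abca1 ratio was not tested.

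**Figure D4:**
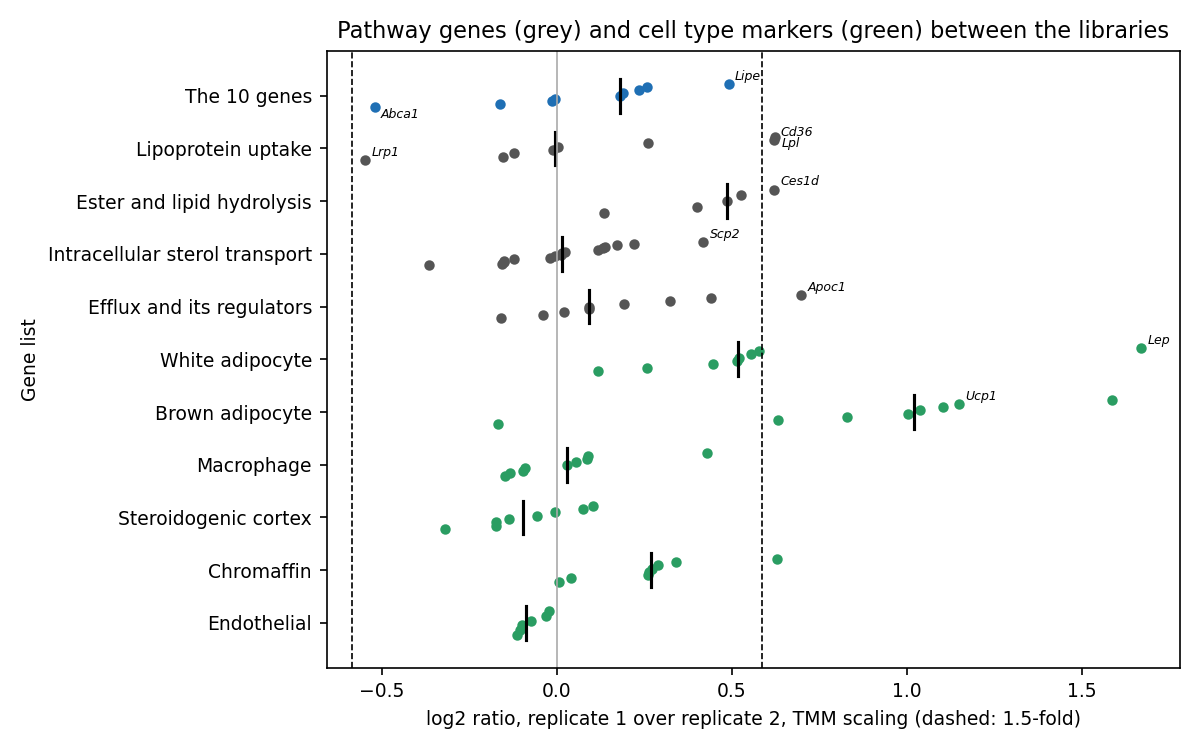
Log2 ratio of replicate 1 over replicate 2 for genes that averaged 100 or more counts, by list. Points are genes, black bars list medians and dashed lines 1.5-fold, with the 10 genes in blue, pathway lists in grey and marker lists in green. Lipe lies on the side of the adipocyte lists, while Abca1 and Lrp1 lie on the other side.

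The kinds of table also differed in level. Alignment-based over read-based TPM had a median log2 ratio of -0.85 in replicate 1 and -0.94 in replicate 2 over protein-coding genes. Of the 9 genes with a mean of 1 TPM or more in either kind of table, 1 was lower past 2-fold in both libraries, Scarb1 at -1.14 and -1.17, against 25.6% of the 13126 protein-coding genes above that floor. Soat2, below the floor, stood at -1.21 and -1.74. After centring on the median of protein-coding genes, 0 of the 9 genes differed past 2-fold in both libraries, against 1.96% of genes. Soat1, at 0.34 and 0.33 after centring, had the highest values of the 10.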

How the data were processed

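Total RNA of 2 adrenal gland libraries was analysed. Per the labels' protocols, a directional library kit was used with ribosomal RNA reduction and ERCC spike-ins. Reads had been quantified against mm10 (GRCm38) with annotation M21 of GENCODE, per the deposited file notes, and names of aligner and quantifiers are not given in the sources used here. The authors deposited gene and transcript tables derived from transcriptome alignments, with expected counts, which divide ambiguous reads among transcripts and so need not be whole, and TPM, per the file headers. For each library the authors also deposited read-based transcript tables with estimated counts and TPM, which were summed per gene here. The lower and upper TPM bounds in the deposited transcript tables are treated as a signal, per the file headers, whose level of confidence is not stated.

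The 10 genes, the pathway and marker lists and the tests were chosen with earlier results of these data known. Named were the 10 genes, their transcripts with 5% or more of TPM in any table, the 3 most abundant and all called genes of each pathway list, and the 2 most abundant of each marker list. One gene of the uptake list is not reported here. Other named genes are said to be chosen after their values were seen or stand beside a member.

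Ratios used expected counts plus 0.5, with TMM factors (edgeR 4.0.16, R 4.3.3). Counts were rounded to whole numbers only for the intervals, the DESeq2 size factors and the dispersion. ERCC, transfer RNA and phage rows were left out of the ratios. Intervals are exact Clopper-Pearson at 95% and reflect counting error alone, because they compare 1 library with 1 library. PCR copies were not marked by molecular identifiers, so the intervals may be too narrow even for counting error. The edgeR common dispersion over 16789 genes was 0.0105, a coefficient of variation of 0.103 between the libraries beyond counting error. The ratio procedure was tested on simulated data. Alternatives were DESeq2 1.42.0 size factors, total counts, ERCC counts, the ratio of TPM, read-based counts, an added count of 5, other filters and a 2-fold call. Complete coding sequence sums and groups of shared coding sequence were chosen after seeing the data. The libraries' expected counts held 0.904% and 0.885% ERCC reads in replicates 1 and 2. Estimated counts summed to 35315387 and 33397838. Sequences of transcripts are from GENCODE M21 and promoters from RefSeq.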

Additional observations from a re-analysis of the deposited data

How the results depend on the processing

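No paired analysis was possible because the series has 1 group. The summed TPM of the 10 genes was 1663 as a mean, 1646 to 1680 with either library left out, 3179 by the read-based tables, 5528 and 5253 when alignment-based and read-based TPM were rescaled to protein-coding genes, and 1419 on complete coding transcripts. Members past 1.5-fold numbered 0, and 1, Abca1, by total counts, ERCC or the ratio of TPM. The genes past 1.5-fold numbered 330, but 1002 at a mean of 20 or more counts, 4275 at 1 count in each library and 56 at 2-fold. Higher in replicate 1 were 177, against 117 by total counts, 102 by ERCC, 489 and 1983 at the looser filters and 28 at 2-fold. Lower in replicate 1 were 153, against 225 by total counts, 256 by ERCC, 340 by the ratio of TPM, 513 and 2292 at the looser filters and 28 at 2-fold. The median log2 ratio of all tested genes was 0.0071 by TMM, -0.069 by total counts, -0.0996 by ERCC and -0.084 by the ratio of TPM. The ratio of Soat1 to Soat2 was 3944, 3640 to 4247 with a library left out, 2089 by the read-based tables and 2046 on complete coding transcripts. That of Abca1 to Abcg1 was 9.37, 7.40 to 11.3 with a library left out, and 16.5 on complete coding transcripts. Npc1 to Npc2 ran from 0.952 to 1.28, and Lipa to Lipe from 0.222 to 0.271, with a library left out. The median log2 ratio between tables was -0.87, -0.94 to -0.81 with a library left out, and 0.0089 after centring. Apart from the changes by construction (transcripts summed, thresholds, centring), the cause was not tested. Of the alternative levels, shares and table ratios of single genes, 77 lay within the SD between libraries of the value reported and 63 did not. The 77 include every value with a library left out, which with 2 libraries lies within the SD by construction. The count is therefore no measure of stability. Of the alternative replicate ratios, 34 lay within the counting interval and 26 did not. Whether alleles of the CAST parent were counted as fully as the others was not tested, and 2 libraries give no test between conditions.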
